A study of Mus musculus with 8 samples.

Results

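Ribosomal RNA genes of the nucleus were examined in small RNA libraries from mouse heart. The members were selected on their level: all genes of the class rRNA in the deposited table whose mean normalised read count over the libraries was above 0, which held for 100 of 354 listed rRNA genes and of 54531 features in all. Of the 54531 features, 14456 had a mean above 0. The members are genes and copies of the 5S rRNA and n-R5-8s1, a gene annotated for the small rRNA that pairs with the 28S rRNA. The rRNAs of mitochondria belong to another class of the table and are not included. The libraries came from hearts of C57BL/6 mice aged 24 weeks, 4 of them labelled RNase H1+/+ and 4 labelled RNase H1-/-. In the knockout, Cre recombinase driven by the Ckmm promoter acts on a loxP-flanked *Rnaseh1* allele in heart and skeletal muscle, so other cells of the heart keep the gene. The labels give the controls as +/+, while in the paper heart controls are L/L animals that have the loxP sites and lack Cre. The source is heart tissue by the labels, but by the paper's methods mitochondria were isolated from heart before the small RNA was taken.

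The genotypes are not compared below. The deposited values of single libraries stand in 8 columns whose names match no library and show no genotype, and these were set aside. Every level given here is the authors' mean over all 8 libraries, pooled over both genotypes and without an error, and it has no replicate check. Reads per gene were scaled by library size factors before averaging and were not divided by gene length. By the paper's methods, reads were counted with a strand option alone. Under this setting a read that touches exons of different genes on its strand is counted for neither gene. The mean was also the measure that chose the members, so the levels are a description and none was tested.

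The 5S rRNA is a short RNA of the large subunit of the cytosolic ribosome. It is made by RNA polymerase III from many gene copies, with the help of the factor TFIIIA that binds inside the gene, and it joins the ribosome together with the proteins Rpl5 and Rpl11. The small rRNA for which n-R5-8s1 is named is cut from the same long RNA polymerase I precursor as the 18S and 28S rRNAs. Mammalian genomes also hold many scattered copies of 5S genes, most of which carry changes and are counted as pseudogenes. The mitochondrial ribosome of mammals has no 5S rRNA of its own and holds a mitochondrial tRNA in its place.

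The commonest 5S sequence of the class is shared by 32 of the 100 genes, Rn5s among them, and all other copies are compared with it below. It has 119 bases and is here named the main sequence. All positions are counted from 1 at its 5′ end, and a change is written with the base of the main sequence first. The coordinates are those of the table on GRCm38, and the sequences compared come from GENCODE release M21 on the same build, where all 354 rRNA genes had the same start and end.

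The nuclear rRNA genes held a summed mean of 34131 normalised counts, or 4.15% of the sum over all features. By summed mean they were the sixth class of the table. The snoRNAs held 73.3% and the mitochondrial class 4.25%. Levels spanned several orders of magnitude. Of the 100 genes, 45 had a mean of at least 400, 56 had at least 10 and 72 had at least 1. The remaining 28 were below 1 and rest on very few reads. At the threshold of the rule, the lowest members were 2 genes with a mean of 0.0637, and 254 rRNA genes were listed at 0. The 5S genes of the array made up 94.6% of the class, genes elsewhere 5.33% and n-R5-8s1 0.0691%.

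**Figure D1:**
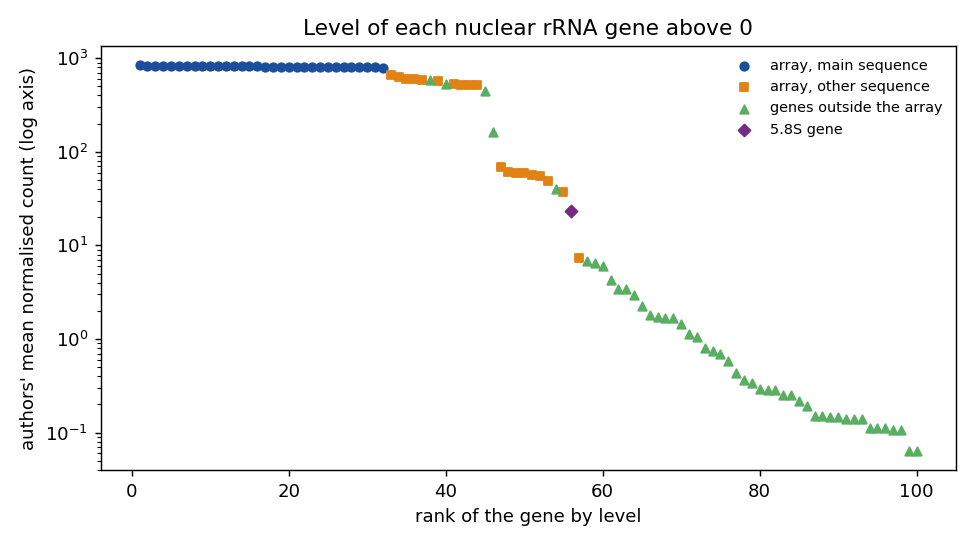
Authors' mean normalised count (log axis) of each of the 100 nuclear rRNA genes above 0, ranked from the highest level. The 32 array copies of the main sequence form a plateau between 794 and 842, other copies form steps between 445 and 664 and between 37.2 and 68.4, and most genes outside the array lie below 10.

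The array on chromosome 8 was read from end to end. It spans 84.96 kb (123538786 to 123623745), lies on the minus strand, and holds 51 copies whose starts are 1665 to 1727 bases apart. All 51 copies were above 0, and 50 had a mean of at least 10. They share 11 distinct sequences. The main sequence alone occurs 32 times. The whole array lies inside the annotated span of Gm20388, a gene on the opposite strand that was itself listed at 0.

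The 32 genes of the main sequence had almost the same level. The lowest was n-R5s108 at 794 normalised counts, the median of the group was 815 and the highest was Gm22291 at 842. Rn5s itself stood at 808 and n-R5s100, the copy with the lowest coordinate, at 831. The SD between these genes was 11.6, or 1.42% of their mean. The aligner was used at default settings, under which a read that fits several places equally well is given to 1 of them. These genes are therefore not separate measurements of transcription, and which of them were transcribed cannot be read from the values. Together they held 26102 normalised counts, or 76.5% of the class.

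**Figure D2:**
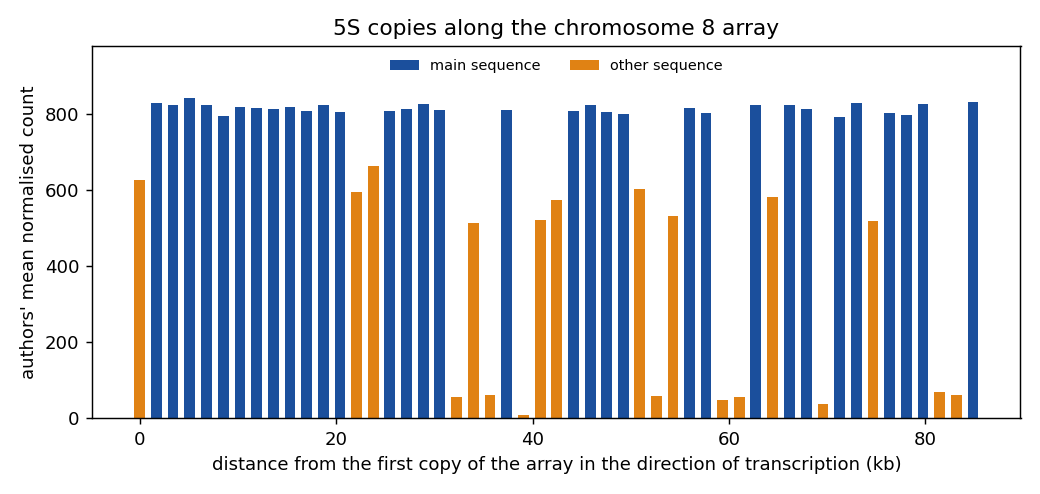
Authors' mean normalised count of the 51 array copies, drawn by distance in kb from the first copy in the direction of transcription. Bars of the main sequence are level between 794 and 842 along the whole array, and the 19 copies of other sequence are all lower, from 7.43 to 664.

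The other 19 array copies were all lower than every copy of the main sequence, and they fell into separate levels by sequence. n-R5s136 differs by T33C alone and stood at 664, or 81.4% of the median of the main sequence. Gm23647 and Gm24089 lack 10 bases, the loss beginning at position 26, 27 or 28, and stood at 628 and 596. These copies differ from the main sequence only in its 5′ part.

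n-R5s120, n-R5s112 and n-R5s125 carry C44T and stood at 603, 583 and 574, with a median at 71.5% of that of the main sequence. n-R5s118, Gm24312, n-R5s106 and n-R5s130 carry T62A and stood at 532, 522, 519 and 513, with a median at 63.9%. Copies of the same sequence were close to each other, and the groups with C44T and T62A did not overlap. Across T33C, C44T and T62A, the level was lower the nearer the changed base lay to the 3′ end.

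Array copies with a change in the last 34 bases were lower by an order of magnitude. n-R5s102 carries G89T, A90T and G93C and stood at 68.4, or 8.39% of the median of the main sequence. n-R5s101 and n-R5s129 carry T2C besides these and stood at 60.3 and 60.0. n-R5s119, n-R5s131 and n-R5s114 carry G1A and T2C besides these and stood at 59.1, 56.1 and 55.5. The 3 changes near the 3′ end were common to these 6 copies, whose levels lay between 55.5 and 68.4. Within this range the level was lower with T2C, and lower again with G1A and T2C, without overlap.

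n-R5s115 carries C3A and G86A and stood at 49.0. n-R5s109 carries C39T, C44T and G99A and stood at 37.2. The copies with C44T and no change near the 3′ end had a median of 583. The lowest copy of the array was n-R5s127 at 7.43, which has C34A, T35A and C36A in addition to the 5 changes of n-R5s119. None of these copies came near the levels of the copies changed only in the first 62 bases.

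**Figure D3:**
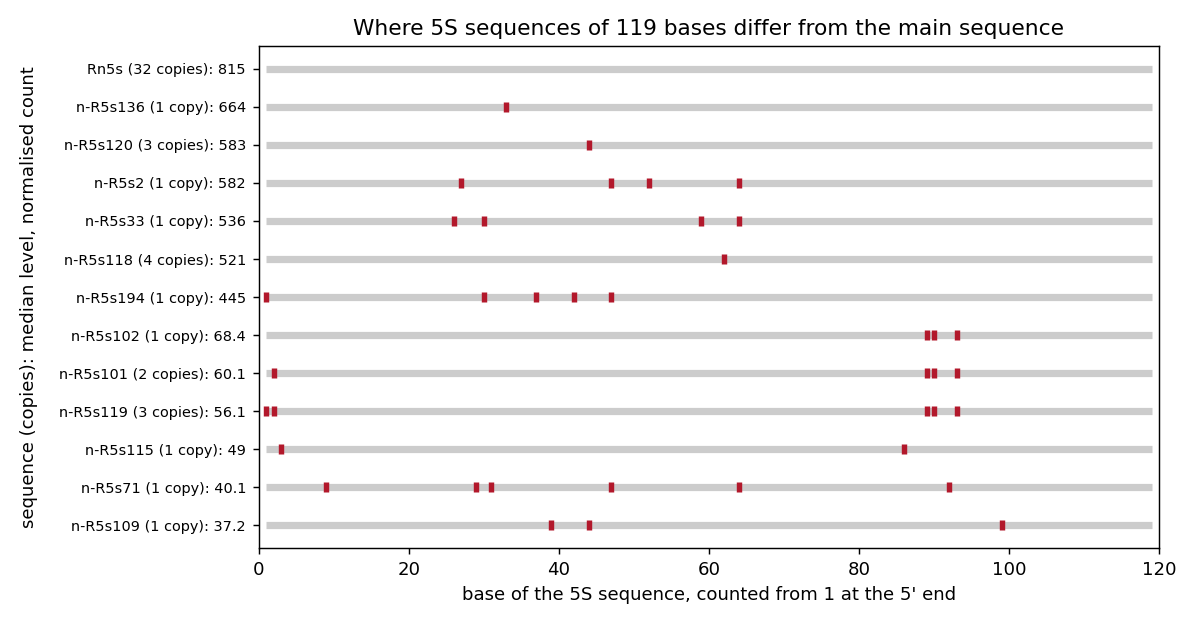
Positions at which 5S sequences of 119 bases and a mean of at least 10 differ from the main sequence (red marks), counted from the 5′ end and ordered by median level in normalised counts. Sequences with marks only up to position 64 have levels of 445 to 664, and those with a mark at position 86 or beyond have levels of 37.2 to 68.4.

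Most genes outside the array were listed at 0. Of 302 such rRNA genes, 48 were above 0, against 14456 of all 54531 features. The median of the 48 was 0.509, and 5 had a mean of at least 10. The 48 lie on 20 chromosomes.

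n-R5s2 on chromosome X (6106891 to 6107009, plus strand) stood at 582 and n-R5s33 on chromosome 16 (33001903 to 33002021, plus strand) at 536, although each differs from the main sequence at 4 bases. n-R5s2 has G27A, G47A, C52T and G64C, and n-R5s33 has C26T, C30T, G59A and G64A. n-R5s33 lies within the gene Lrch3 on the same strand, outside its exons, and Lrch3 had a mean of 1.25. n-R5s194 on chromosome 3 (4338998 to 4339116, plus strand) has G1A, C30T, G37A, A42T and G47A and stood at 445. All 3 share at least the last 55 bases of the main sequence, and all 3 were higher than 9 of the 51 array copies. A read within this shared end fits array copies equally well. Whether these 3 genes were transcribed therefore cannot be read from the values.

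n-R5s71 on chromosome 11 (74319792 to 74319910) differs at 6 bases, the last of them by C92T, and stood at 40.1. n-R5s193 on chromosome 4 (149817732 to 149817840, plus strand) has the first 90 bases of the main sequence and a different end, and stood at 162. It was the only gene between 68.4 and 445. A predicted miRNA gene of 60 bases, Gm47301, lies inside n-R5s193 on the same strand and was listed at 0. Reads touching both genes were counted for neither, so the level of n-R5s193 leaves them out and the listing of Gm47301 follows from the counting. The part of this overlap in the level was not tested.

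The next lower genes were n-R5s151 and n-R5s156 on chromosome 7 at 6.79 and 6.49, and Gm23806 on chromosome X at 6.03. n-R5s151 is 95.8% identical to the main sequence over its full length, with C10T, C26T, C36T, G81C and G99A. n-R5s194 has the same identity of 95.8% and stood at 445. This pair, picked after the values had been seen, differs in level at the same overall identity. Over all 99 5S genes above 0, Spearman's rho between level and overall identity was 0.90.

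Among 5S genes with a mean of at least 10, the length of the 3′ end shared with the main sequence separated high from low levels. This measure was chosen after the levels had been seen, and it is given as a description with no test. Of these 55 genes, 45 share the last 55 bases or more and stood between 445 and 842. The other 10 stood between 37.2 and 162. The groups did not overlap. Among the 10, 8 share a stretch of at least 80 bases with the main sequence elsewhere in the gene, and their levels were 49.0 to 162.

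Among the 23 genes of mean at least 10 without the main sequence, Spearman's rho between level and the shared 3′ end was 0.84. For the shared 5′ end it was 0.38, for the longest shared stretch anywhere -0.06 and for overall identity 0.29. Over all 99 5S genes above 0, rho was 0.90 for the shared 3′ end, 0.81 for the shared 5′ end, 0.92 for the longest shared stretch and 0.90 for overall identity. The minimum mean of 10 is a cut on the level itself, and without it the shared 3′ end did not stand apart from the other measures. Among the genes it leaves out, n-R5s127 shares 26 bases of the 3′ end, as n-R5s119 does, and stood at 7.43. The genes share reads and several share a sequence, so these are descriptions over genes and not over independent samples. The order was not strict. n-R5s194 shares 72 bases of the 3′ end and stood lower than the copies with T62A, which share 57.

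**Figure D4:**
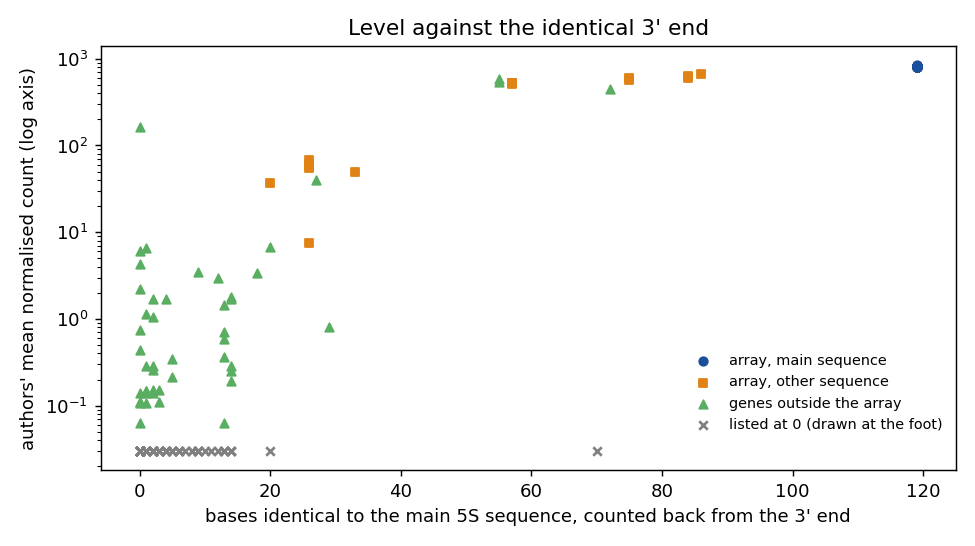
Authors' mean normalised count (log axis) against the number of bases identical to the main 5S sequence, counted back from the 3′ end, for the 353 rRNA genes other than n-R5-8s1. All genes above 0 with 55 or more identical bases lie between 445 and 842, no gene has 34 to 54, and n-R5s185, with 70 bases, is listed at 0 (crosses at the foot of the plot).

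The gene n-R5s185 on chromosome 4 (53860652 to 53860770, plus strand) lay outside this pattern in the listed values. It carries G7A, G25A, C36T, G47T and A49G and shares the last 70 bases of the main sequence, but it was listed at 0. It lies whole within the 3′ untranslated region of Tmem38b (53860098 to 53862019) on the same strand. Reads on n-R5s185 would be counted for neither gene, so its 0 is no measure of its level. Tmem38b encodes a cation channel of the sarcoplasmic and endoplasmic reticulum. Tmem38b had a mean of 598 and ranked 9 among 22033 protein-coding genes. Where in Tmem38b its reads lie was not analysed here.

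The last 30 bases of the main sequence (positions 90 to 119) occur in transcripts of 47 rRNA genes of the annotation and of 1 other gene, Tmem38b. The first 30 bases occur in 44 rRNA genes and in 0 other genes. A stretch of 30 bases from the middle (positions 46 to 75) occurs in 55 rRNA genes and in 4 predicted miRNA genes, Gm47276, Gm47281, Gm47285 and Gm47301, all listed at 0. Each of these 4 lies inside an rRNA gene on the same strand. Reads on them would be counted for neither gene, so their listing at 0 does not show an absence of reads. The rRNA genes are Gm26381, n-R5s1, n-R5s64 and n-R5s193.

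The 254 rRNA genes listed at 0 resemble the 5S sequence less than those above 0. Their median identity to the main sequence was 66.8%, against 86.6% for the 48 genes above 0 outside the array. Identity of at least 90% was found in 2 of the 254 and in 15 of the 48. The median of the longest stretch shared with the main sequence was 13 bases at 0 and 31 bases above 0.

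The gene n-R5-8s1 lies on chromosome 18 (73533403 to 73533550, minus strand) and is 148 bases long. No other annotated gene overlaps it on either strand. It had a mean of 23.6, or 159 per kb of gene. This is the level of a single annotated copy and not of that small rRNA as a whole. The 5S array as a whole had a summed level of 271328 per kb. No stretch of 25 bases of n-R5-8s1 occurs in a transcript of any other gene of the annotation (0 genes), and reads from copies outside that annotation were not analysed here.

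A gene tied by name to nuclear rRNA also lies outside the class. The gene CT010467.1 of the class rRNA lies on chromosome 17 (39846353 to 39848827, minus strand) and was listed at 0. An exon of the lincRNA gene AY036118, also listed at 0, lies over part of CT010467.1 on the same strand. Reads touching both would be counted for neither gene. On the plus strand of the same place, Gm42418 of the class lincRNA (39846958 to 39848788) had a mean of 29086. RefSeq names this place Rn18s-rs5, a sequence related to the 18S rRNA, and gives Gm42418 as its synonym. Its neighbour Gm26917 had a mean of 20273, and the sequence of Gm26917 was not compared with any rRNA. These 2 genes held 99.1% of the class lincRNA and 1.45 times the summed mean of the class rRNA.

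Transcripts of proteins that make or bind these rRNAs were also read. All 20 genes of a list for this process were above 0, and 9 had a mean of at least 1. Of all 22033 protein-coding genes, 50.4% were above 0 and 14.9% had a mean of at least 1. The median was 0.847 for the list and 0.512 for all protein-coding genes above 0. Rpl5, the ribosomal protein that carries 5S rRNA and whose introns hold snoRNA genes, stood at 277. The others above 1 were between 1.09 for Las1l, which takes part in processing of the spacer before the 28S rRNA, and 4.38 for Gtf3c1, a subunit of the factor TFIIIC. Gtf3a, which encodes TFIIIA, stood at 0.107. Among other RNAs of RNA polymerase III, the 7SK RNA (Rn7sk) had a level of 1696 per kb and the signal recognition particle RNA genes Rn7s1 and Rn7s2 had 1194 and 1154 per kb. These levels per kb are each below that of the 5S array summed over its copies.

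*Rnaseh1* was listed at 0, so the deletion could not be checked in these values. All 10 cardiomyocyte markers were above 0, from 36.8 for Tnni3 to 1809 for Ttn, with a summed mean of 3319. The summed means of the other marker lists were 24.4 for endothelium, 64.4 for fibroblasts, 8.91 for leukocytes and 33.5 for erythroid cells, each with every marker above 0. The lists differ in number of genes, the means were not divided by gene length, and Ttn alone held 1809 of the 3319. The sums are therefore no measure of the share of each cell type. These are fragments of mRNAs, and the part of other cells in the rRNA levels was not tested.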

How the data were processed

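Small RNA was sequenced from 8 heart libraries. By the paper's methods and the submitters' processing notes, the authors mapped reads of 1 end to the mm10 genome (Bowtie2 version 2.3.4.1, default settings). Reads on the sense strand of each gene were counted (featureCounts version 1.6.3), the annotation being GRCm38 of Ensembl release 94 with an in-house mitochondrial part. The deposited mean per gene is a signal: read counts scaled by the size factors of DESeq2 version 1.18.1 (R version 3.5.1) and averaged by the authors over the libraries. The depth of single libraries is not analysed here.

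The table also holds 5 columns of the authors' comparison of the genotypes (fold change, its standard error, test statistic, p-value and adjusted p-value), which were not used. The 8 columns of single libraries were set aside by choice, since nothing in their names ties them to a library or a genotype. Beside them the authors give means by genotype for mitochondrial genes, through which columns could be matched to genotypes by their values, but libraries were assigned here by name only. The planned limma fit, permutation tests, fits with a replicate block and fits leaving out libraries were therefore not run. The rule for members asks for a mean over these columns, and the authors' mean was taken for it.

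Sequences of GENCODE release M21 were compared with that of Rn5s in Python version 3.11.15 (Biopython 1.88, pandas 2.3.3, numpy 2.4.6). The substitutions and shared ends were tested on simulated data, and 200 of 200 simulated copies were recovered. Copies starting within 10000 bases of each other on chromosome 8 formed the array. The rule named up to 30 of the genes with a mean of at least 10, and genes named beyond it were chosen after their values had been seen, as was the length of 55 bases for a shared 3′ end. The 5S sequences themselves are not reported here. Members and lists were chosen with earlier results of these data known.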

Additional observations from a re-analysis of the deposited data

How the results depend on the processing

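The number of rRNA genes counted as read depended on the minimum mean. It was 100 above 0, 72 at a mean of at least 1, 60 at a mean of at least 5 and 56 at a mean of at least 10, and 82 when only genes with an n-R or Rn symbol were taken. Under these settings and per kb, the share of the array was 93.3% to 94.7% and that of the main sequence 76.2% to 77.2%. Among 5S genes with a mean of at least 10, the lowest with the last 55 bases stood 2.74 times above the highest without them, and the ratio was the same over all 5S genes above 0. With genes at 0 included it was 0, because of n-R5s185, whose reads would be counted for neither it nor Tmem38b. For an identical stretch of 55 bases anywhere, the ratio was 1.22 among genes with a mean of at least 10. Over all genes above 0 it was 0.036, reversed, because of n-R5s64 (57 bases, 1.44). The miRNA gene Gm47285 lies over most of this stretch on the same strand, and reads touching both genes were counted for neither. For the first 55 bases the ratio was 0.103, reversed, in both sets. These alternatives were added after the data had been seen. No paired analysis was possible because the names of the columns of single libraries carry no replicate number or genotype and these columns were set aside. For the same reason no library was left out and no other scaling or pseudocount was tried. The means carry no error, and levels below 1 rest on very few reads.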
